A study of Mus musculus with 2 samples.

Results

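The genes described here are 9 markers of neural progenitors, *Nes*, *Pax6*, *Sox1*, *Sox3*, *Sox11*, *Msi1*, *Fabp7*, *Zic1* and *Hes5*. They were chosen by name, with earlier results of these data known. Of these, 8 were placed by the GENCODE M1 annotation of the mouse genome build mm9, which holds 37310 genes. *Sox1* is not listed there under its name and was placed by sequence, as described below. The samples were 1 library of ESCs and 1 library of NPCs of non-polyadenylated (NPA) RNA, the RNA that is left after molecules with a poly(A) tail are taken out. ESCs were male mouse R1 embryonic stem cells at passage 18, kept with serum and LIF on mitomycin-treated mouse embryonic fibroblasts. NPCs were made from ESCs, first as embryoid bodies without LIF for 4 days and then replated on polyornithine and fibronectin in serum-free medium, and were gathered at day 7. No transgene or other agent was named for either group, both rest on a single ESC line, and no step that sorts progenitors from the other cells of the culture was described. The reads were strand-specific, so a read could be given to the strand of the gene that made it.

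Neural progenitors are dividing cells of the neural plate and neural tube that give rise to neurons and later to glia. SoxB1 transcription factors (Sox1, Sox2 and Sox3) keep them in the progenitor state, Notch signalling through the Hes repressors holds back their differentiation, and factors such as Pax6 and Zic1 give them their regional identity. Nestin is the intermediate filament protein by which these cells are most often recognised, Musashi-1 is an RNA-binding protein of progenitors, and Fabp7 is a fatty acid carrier of radial glia. Apart from histone mRNAs, the mRNAs of such genes normally end in a poly(A) tail. A count here is therefore of RNA that stayed in the NPA fraction and not of all the gene's mRNA.

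The ESC library held 4271306 mapped reads and the NPC library 4399729, so that 1 read was worth 0.234 and 0.227 reads per 1000000 mapped reads (RPM). With 1 library per cell type there was no replicate error, no test between cell types was possible, and each interval given is an exact 95% interval that covers counting error alone. Each ratio compares these 2 libraries. PCR copies are not independent molecules, and reads that start at the same base were therefore also counted once (1531216 distinct starts in ESCs and 1848069 in NPCs). Separate molecules can share a start too, most of all in deeply read genes, so such counts can understate a difference. Where a gene had no read, a count of up to 3 reads (0.702 RPM in ESCs and 0.682 RPM in NPCs) could not be told from 0. Over the 14859 genes with at least 10 reads in both libraries together, the median log2 ratio of NPCs to ESCs was 0.34, and ratios relative to that median are given beside the plain ones where this matters. In bulk libraries, fewer cells of a type and less RNA per cell cannot be told apart.

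Because it carries the placement of *Sox1*, the sequence before its start is shown first. The RefSeq promoter sequence of *Sox1* (build GRCm38.p6) was found at 1 place in mm9, at chr8:12395269-12395568 on the + strand, and its 250 bases before the start of the gene read as follows, with CpG dinucleotides in capitals.
Sox1 upstream: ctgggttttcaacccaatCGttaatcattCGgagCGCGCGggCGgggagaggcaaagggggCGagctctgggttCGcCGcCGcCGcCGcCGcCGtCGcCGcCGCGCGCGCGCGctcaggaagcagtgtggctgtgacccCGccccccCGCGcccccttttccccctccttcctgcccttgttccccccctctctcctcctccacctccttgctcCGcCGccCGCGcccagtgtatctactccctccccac
The 5 kb that follow, chr8:12395519-12400518, were used as the *Sox1* window, since *Sox1* is a gene without introns. They lie inside an intron of the annotated gene *Gm5607* on the same strand, whose exons held 0 reads in both libraries.

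Members of the Sox and Zic families are so alike in their DNA-binding parts that a read of 48 bases could be given to the wrong relative. The sequences under the member reads that came closest to a relative are shown here because they set how far the counts can be trusted, each with the relative's stretch under it and the bases that differ in capitals.
Sox11, chr12:28027033-28027080, - strand: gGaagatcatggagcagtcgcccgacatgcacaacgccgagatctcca
Sox4, chr13:29044620-29044667, - strand: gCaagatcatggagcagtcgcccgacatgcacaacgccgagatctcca
Zic1, chr9:91259011-91259058, - strand: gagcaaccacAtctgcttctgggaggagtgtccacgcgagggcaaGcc
Zic2, chr14:122875785-122875832, + strand: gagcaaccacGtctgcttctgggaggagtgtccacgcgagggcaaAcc
Sox1, chr8:12396500-12396547, + strand: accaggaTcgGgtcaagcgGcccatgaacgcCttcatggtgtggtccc
Sox3, chrX:58146140-58146187, - strand: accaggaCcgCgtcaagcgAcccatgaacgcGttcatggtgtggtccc
Sox3, chrX:58146056-58146103, - strand: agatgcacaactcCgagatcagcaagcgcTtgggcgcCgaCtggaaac
Sox2, chr3:34549537-34549584, + strand: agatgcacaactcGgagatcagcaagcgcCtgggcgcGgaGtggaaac
The *Sox11* stretch carried 3 ESC and 5 NPC reads and differed from *Sox4* at 1 base, and the *Zic1* stretch differed from *Zic2* at 2 bases. Mapping allowed up to 2 mismatches, so such reads rest on those letters. Of 40 distinct 48-base stretches read in *Sox11*, 11 lay within 6 mismatches of another Sox gene of the 7 compared, as did 1 of 37 in *Sox1* and 1 of 5 in *Sox3*. For *Zic1* it was 3 of 18 stretches against 4 relatives. *Msi1* came no closer than 9 mismatches to *Msi2*, and *Pax6* no closer than 10 to *Pax3* and *Pax7*. For *Sox11*, the letters of 18 of 18 reads in ESCs and 59 of 60 in NPCs were found once in mm9 with no mismatch. The same held for the 1 ESC read and all 22 NPC reads of *Zic1*.

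Reads over exons on the gene's strand were few for every member. The 8 annotated members together held 186 reads in ESCs (43.5 RPM) and 284 in NPCs (64.5 RPM), a ratio of 1.48 with an interval of 1.23 to 1.79. *Nes* and *Msi1* made up most of both sums. Without these, chosen after their values were seen, the other 6 annotated members held 21 reads in ESCs and 103 in NPCs, a ratio of 4.76 (2.96 to 8.02). With the *Sox1* window the sum over all 9 members was 193 and 333 reads, a ratio of 1.68 (1.40 to 2.01).

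**Figure D1:**
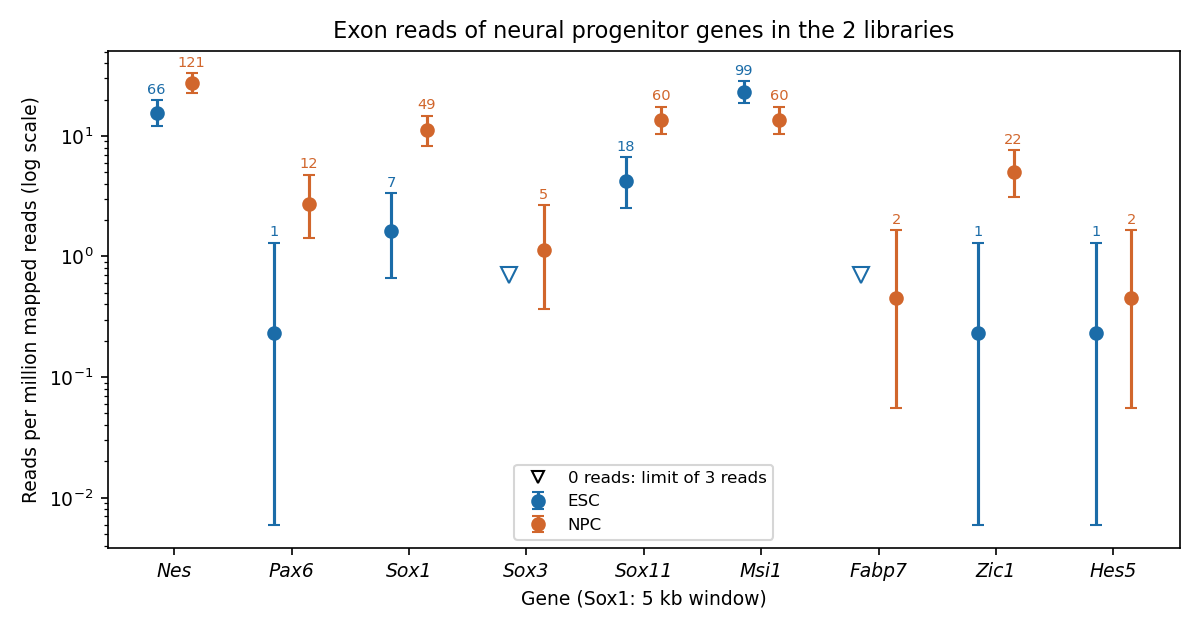
Reads per 1000000 mapped reads over the exons of each member (log axis) in the ESC library (blue) and the NPC library (orange), with exact 95% Poisson intervals and the read count above each point. Open triangles stand at the limit of 3 reads where no read was found. Nes and Msi1 have 60 reads or more in both libraries, whereas Pax6, Zic1, Sox3, Fabp7 and Hes5 have 0 or 1 read in ESCs.

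*Nes*, which encodes nestin (ENSMUSG00000004891.10, chr3:87775000-87784373, + strand), held 66 reads in ESCs and 121 in NPCs. The gene was thus read in both libraries, and its level in RPM was 1.78 times as high in NPCs (1.31 to 2.44). The intervals of the counts, 51.0 to 84.0 and 100 to 145 reads, did not overlap. With each start counted once, the counts were 50 and 80, which gave a ratio of 1.33 (0.92 to 1.93), an interval that includes 1. Against that median over all genes, *Nes* stood at a log2 ratio of 0.49. Of the 4 exons, the last and largest, with 5031 bases, carried 61 ESC and 118 NPC reads, and of the read starts placed on the longest coding transcript 57 of 64 in ESCs and 111 of 121 in NPCs fell in the coding part. Introns of *Nes* held 10 reads in ESCs and 11 in NPCs, or 3.38 and 3.72 reads per kb against 10.3 and 18.9 reads per kb in exons. The intron ratio of 1.07 had an interval of 0.412 to 2.80.

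*Pax6*, a paired-box factor of the eye field, forebrain and ventricular zone (ENSMUSG00000027168.12, chr2:105509053-105543317, + strand), held 1 read in ESCs and 12 in NPCs. Its ratio of 11.6 carried an interval of 1.72 to 498, since it rests on a single ESC read. The 12 NPC reads had 11 distinct starts and were spread over 7 of its exons. On the longest coding transcript 9 of 11 NPC starts fell in the coding part of 1308 bases and 1 in the 3′ untranslated part of 6808 bases. On the opposite strand the exons of *Pax6* held more reads than on its own, 18 in ESCs and 46 in NPCs. *Elp4*, a gene of the Elongator complex that ends inside *Pax6* on the other strand, shares 5841 bases with it, and 18 of the 18 ESC and 43 of the 46 NPC opposite-strand reads overlapped exons of *Elp4*. In that shared stretch no read lay on the strand of *Pax6* in either library. Counted without regard to strand, the log2 ratio of *Pax6* with 1 read added would have been 1.52 in place of 2.66.

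Among the SoxB1 members, *Sox1*, one of the earliest markers of the neural plate, had 7 reads in its window in ESCs and 49 in NPCs. In RPM it was 6.80 times as high in NPCs (3.06 to 17.8), and the counts of distinct starts, 5 and 40, gave 6.63 (2.62 to 21.5). Of these, 7 of 7 in ESCs and 47 of 49 in NPCs were found once in mm9, no read lay on the opposite strand, and the 5 kb before the start held none on either strand. In NPCs 8, 13 and 6 read starts fell in the 3 stretches of 250 bases from 2000 bases after the start, and 6 more in the one that begins at 3250 bases. In ESCs 6 of the 7 starts fell in the same first 3 stretches.

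*Sox3* (ENSMUSG00000045179.7, chrX:58144545-58146605, - strand), the SoxB1 gene on the X chromosome, held no read in ESCs and 5 in NPCs. All 5 had different starts and each was found once in mm9. The exact interval of its ratio began at 0.89 and so includes 1, and a difference was not detectable at this depth. Of the 5 starts, 1 fell in the coding part and 4 in the 3′ untranslated part. *Sox2*, the SoxB1 gene that ESCs share with neural progenitors, is not among the 9 genes and had the opposite direction, with 879 reads in ESCs and 134 in NPCs, a ratio of 0.148 (0.122 to 0.178).

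*Sox11*, a SoxC factor of late progenitors and young neurons (ENSMUSG00000063632.5, chr12:28025562-28027574, - strand), held 18 reads in ESCs and 60 in NPCs, a ratio of 3.24 (1.88 to 5.82). With each start counted once there were 13 and 36, and the ratio was 2.29 (1.19 to 4.71). GENCODE M1 gives *Sox11* a single exon of 2013 bases, but reads on its strand went on beyond the annotated end. The next 5 kb, which hold no other annotated gene, had 29 reads in ESCs and 168 in NPCs, a ratio of 5.62 (3.78 to 8.65), and no read on the opposite strand. In reads per kb per 1000000 mapped reads (RPKM) these were 1.36 and 7.64, beside 2.09 and 6.77 over the exon itself. The 5 kb after that had 9 and 25 reads, and of all the read starts drawn in the map of the gene none lay in NPCs beyond 8 kb from the start. Exon and first 5 kb together held 47 and 228 reads, a ratio of 4.71 (3.43 to 6.59), so that the annotated exon held only part of the reads on this strand. Of the relatives, *Sox4*, the other SoxC gene with many reads, held 96 and 197, a ratio of 1.99 (1.55 to 2.57).

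**Figure D2:**
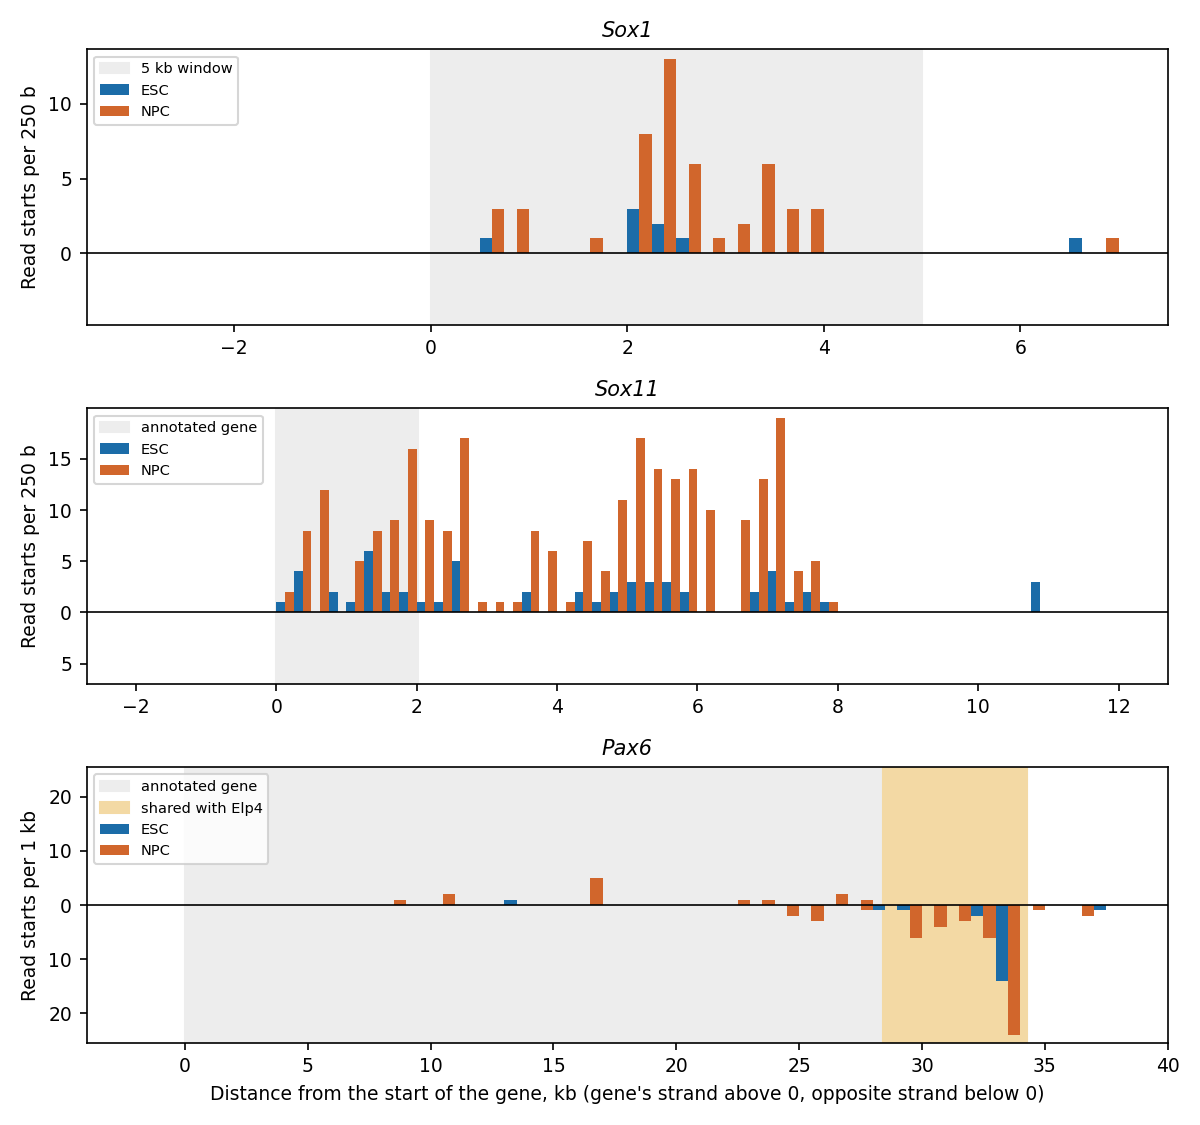
Read starts by distance from the start of the gene in kb, for Sox1 and Sox11 per 250 bases and for Pax6 per 1 kb, in the ESC (blue) and NPC (orange) libraries. Bars above 0 count the gene's strand and bars below 0 the opposite strand; grey marks the Sox1 window or the annotated gene, and yellow the stretch that Pax6 shares with Elp4, where all reads are on the opposite strand. Sox11 reads continue past the grey annotated part to about 8 kb.

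*Zic1*, a zinc finger factor of the dorsal neural tube (ENSMUSG00000032368.8, chr9:91252896-91260648, - strand), held 1 read in ESCs and 22 in NPCs, and its ratio of 21.4 (3.45 to 881) was the highest point value among the members. The 22 reads had 20 distinct starts. Of its 4 exons the first held 6 NPC reads and the last 16, and 8 of 22 starts fell in the coding part, 13 in the 3′ untranslated part and 1 in the 5′ untranslated part. *Zic4*, which overlaps *Zic1* on the other strand, held 1 and 2 reads. *Zic2* had 14 and 34 reads, a ratio of 2.36 (1.23 to 4.76). *Zic5* had 23 and 28 reads, and its log2 ratio was 0.23, or -0.11 relative to all genes.

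*Msi1*, which encodes Musashi-1 (ENSMUSG00000054256.5, chr5:115879608-115905707, + strand), was the one annotated member with fewer reads in NPCs, 99 in ESCs and 60 in NPCs. The ratio was 0.588 (0.420 to 0.819), and with each start counted once, 73 and 45, it was 0.511 (0.344 to 0.751). Against the median over all genes it stood at a log2 ratio of -1.09. Its introns went the other way in number, with 7 reads in ESCs and 17 in NPCs, but the intron ratio of 2.36 had an interval of 0.929 to 6.72 that includes 1. The last of the 18 exons held 55 ESC and 30 NPC reads, exon 12 held 15 and 5, and exon 9 held 12 and 13. A base in exon 9 started 5 reads in ESCs, the most of any, and 3 in NPCs, a number that 4 other starts also reached there. *Msi2*, the other Musashi gene, was also lower in NPCs, with 583 and 274 reads and a ratio of 0.456 (0.394 to 0.528).

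*Fabp7* (ENSMUSG00000019874.5, chr10:57504687-57508256, + strand), the fatty acid binding protein of radial glia, held no read in ESCs and 2 in NPCs. *Hes5*, a Notch-induced repressor of neuronal genes (ENSMUSG00000048001.7, chr4:154335032-154336480, + strand), held 1 and 2. Both genes were at or under the limit of 3 reads in both libraries, and a difference was not detectable at this depth. The 5 kb after *Hes5* held 15 and 12 reads on its strand, but *Pank4*, a metabolic enzyme gene with 158 and 134 exon reads, begins 1751 bases after its end.

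**Figure D3:**
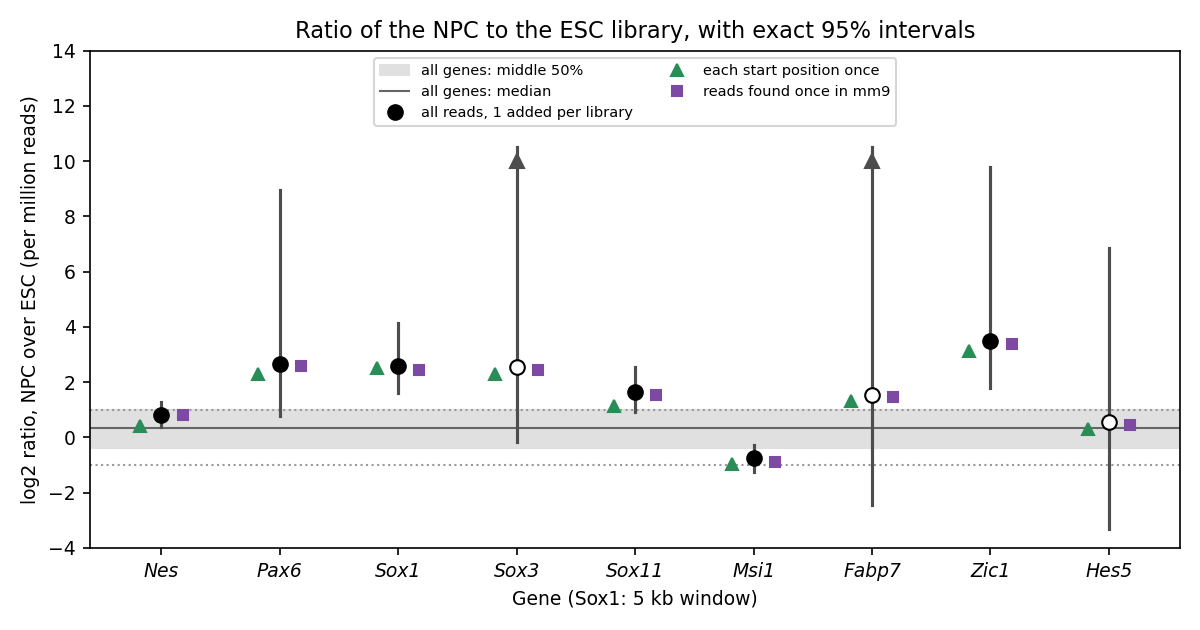
The log2 ratio of the NPC to the ESC library for each member, in RPM with 1 read added to each library (circles, filled where both libraries together held at least 10 reads), with each start counted once (triangles) and with reads found once in mm9 (squares). Vertical lines are exact 95% intervals of the ratio of all reads with none added, and arrowheads mark intervals without an upper end; the grey band holds the middle 50% of all genes, from -0.39 to 0.99, and dotted lines stand at a 2-fold difference. Zic1, Pax6, Sox1 and Sox11 lie above the band and Msi1 lies below it.

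Of the 8 annotated members, 5 passed the minimum of 10 reads, and *Sox3*, *Fabp7* and *Hes5* did not. With 1 read added to each library, 3 of these 5 (*Pax6*, *Sox11* and *Zic1*) were more than 2-fold higher in NPCs, beside 24.6% of all genes tested, and none was more than 2-fold lower, beside 12.8%. With the *Sox1* window it was 4 of 6. With each start counted once the share of all genes more than 2-fold higher was 12.0% and the median of all genes 0.01. The median log2 ratio of the 5 was 1.64, with a range from -0.76 to 3.48, and that of the 6 was 2.12. *Pax6* and *Zic1*, with 1 ESC read each, passed the minimum through their NPC reads, so these counts and medians only describe which members could be counted.

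Compared per length of exon, in RPKM, the order of the levels differed between the libraries. In ESCs *Msi1* was first at 4.00 (3.25 to 4.87), followed by *Nes* at 2.41 (1.86 to 3.06) and *Sox11* at 2.09 (1.24 to 3.31). *Nes* and *Sox11* overlapped in their intervals, whereas *Msi1* stood above both in value and above *Nes* in interval. In NPCs *Sox11* was first at 6.77 (5.17 to 8.72), followed by *Nes* at 4.29 (3.56 to 5.12), *Msi1* at 2.35 (1.79 to 3.03) and the *Sox1* window at 2.23 (1.65 to 2.94). These places depend on the length used for *Msi1*, whose exons come to 5800 bases over all transcripts and to 3133 in the longest coding one. Over that transcript *Msi1* stood at 7.32 in ESCs and 4.28 in NPCs, and *Nes* at 2.52 and 4.49. In NPCs *Msi1* was then close to *Nes* and above *Sox1*, whereas over all exons its interval overlapped that of *Sox1* and not that of *Nes*. *Zic1* at 0.878 (0.550 to 1.33), *Sox3* at 0.551 (0.179 to 1.29), *Fabp7* at 0.364 (0.0440 to 1.31) and *Hes5* at 0.334 (0.0404 to 1.20) overlapped one another. *Pax6* had the lowest value, 0.138 (0.0711 to 0.240), over the 19833 bases of exon that its 33 transcripts cover together. Its interval overlapped those of *Sox3*, *Fabp7* and *Hes5*, but not that of *Zic1*. Over the longest coding transcripts *Pax6* stood at 0.298, *Fabp7* at 0.258 and *Hes5* at 0.357, so that *Fabp7* was then the lowest. *Sox11* in NPCs had a higher RPKM than 73.8% of annotated protein-coding genes, *Nes* than 66.7%, *Msi1* than 59.2% and *Pax6* than 37.7%. In ESCs these shares were 61.1%, 63.0%, 70.9% and 32.8%.

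Over protein-coding genes with at least 10 reads, 55.7% of read starts in ESCs and 53.6% in NPCs fell before the midpoint of the longest coding transcript. For *Msi1* it was 53.1% (42.7 to 63.4) in ESCs and 50.8% (37.5 to 64.1) in NPCs. *Nes* had 57.8% (44.8 to 70.1) in ESCs and 43.0% (34.0 to 52.3) in NPCs, and these intervals overlap. *Zic1* in NPCs had 68.2% (45.1 to 86.1), and *Sox11* had 38.9% (17.3 to 64.3) in ESCs and 36.7% (24.6 to 50.1) in NPCs. The *Sox11* midpoint is that of its annotated exon alone. Reads on its strand went on beyond that exon, so this share does not describe all of them. All 11 NPC starts on the longest *Pax6* transcript lay before its midpoint, as the whole coding part does. No single start held more than 5 reads in any member.

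**Figure D4:**
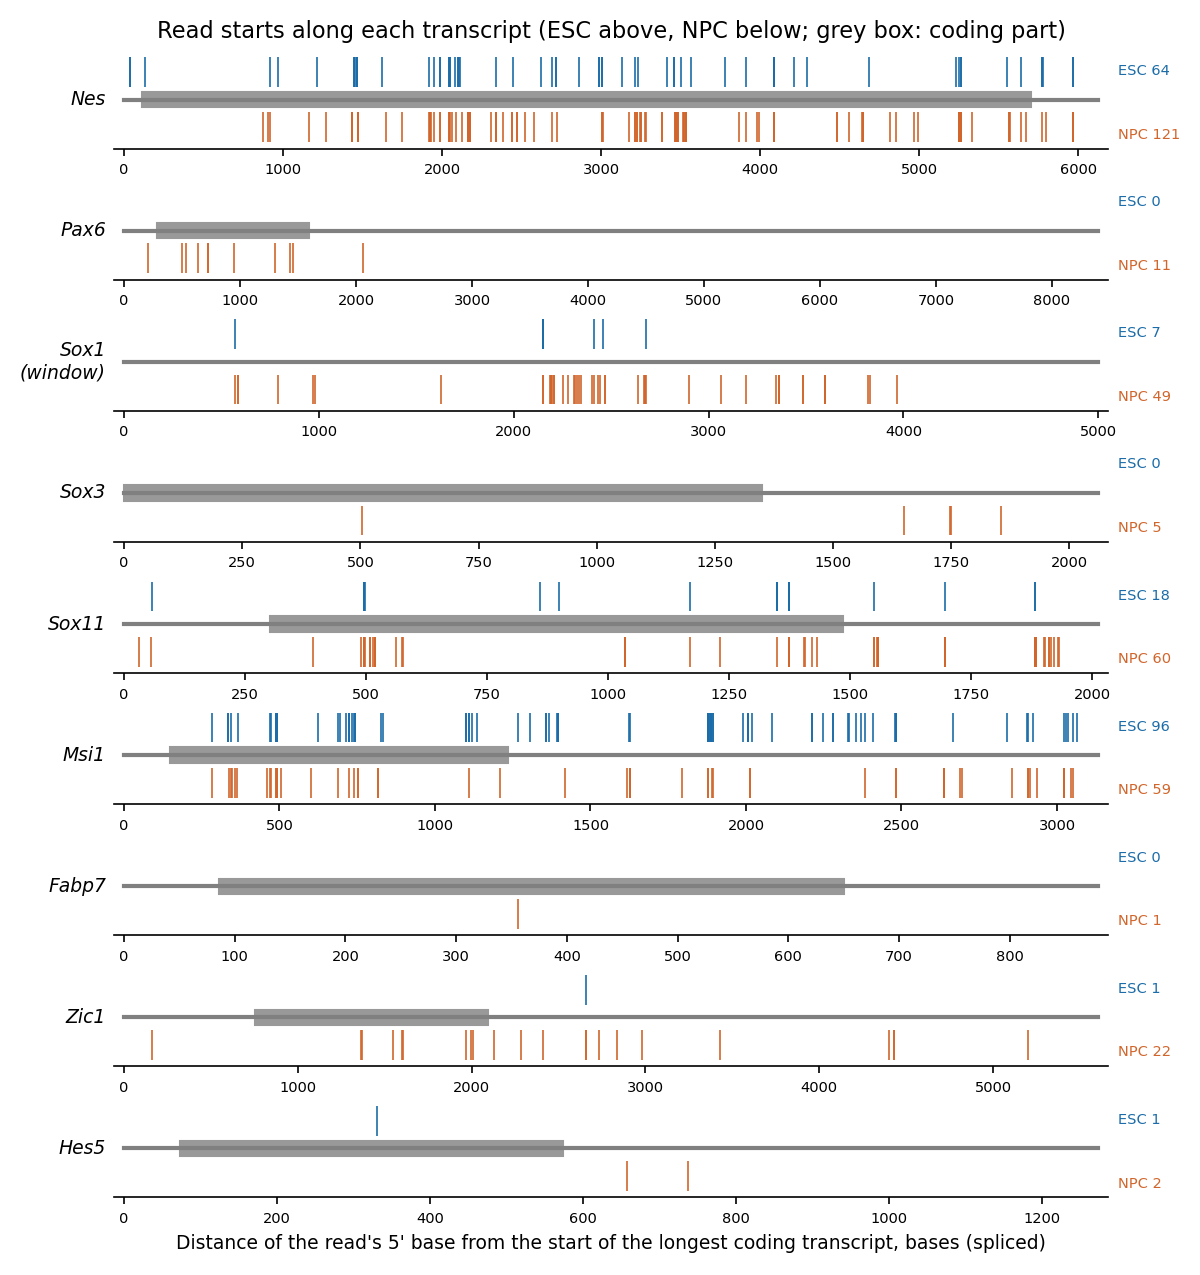
Each tick is the 5′ base of 1 read along the longest coding transcript of a member, in spliced bases from its start, with ESC reads above the line and NPC reads below it and the number of ticks at the right; the grey box is the coding part, and Sox1 is the 5 kb window with no coding part drawn. Nes ticks cover the coding part in both libraries, and Pax6 ticks in NPCs lie mostly in the coding part.

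The Notch pathway, through which *Hes5* is switched on, was read more deeply than *Hes5* itself. Of 14 pathway genes 13 passed the minimum of 10 reads. Of these 1 was more than 2-fold higher in NPCs and 4 more than 2-fold lower, beside 24.6% and 12.8% of all genes. Their median log2 ratio was -0.60, beside 0.34 over all genes. *Rbpj*, the DNA-binding partner of the Notch receptors, held 1160 and 899 reads, a ratio of 0.752 (0.689 to 0.822), and the receptor gene *Notch3* held 434 and 273, a ratio of 0.611 (0.523 to 0.712). The receptor gene *Notch2* was the highest, with 190 and 487 reads and a ratio of 2.49 (2.10 to 2.96). *Dll3*, which encodes a Notch ligand of the paraxial mesoderm and of young neurons, was the lowest, with 13 and 2 reads and a ratio of 0.149 (0.0164 to 0.660).

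A further list of 28 genes of neural progenitors and of their regions was placed in full. Of the 20 with at least 10 reads, 11 were more than 2-fold higher in NPCs and 2 more than 2-fold lower, with a median log2 ratio of 2.04, or 1.87 with genes at 0 in ESCs set at 3 reads there. The shares among all genes were 24.6% and 12.8%. All 11 held fewer than 10 reads in ESCs and so passed the minimum through their NPC reads. With a minimum of 50 reads 3 were more than 2-fold higher and 1 lower, and the median was 0.41. *Ptn*, which encodes the growth factor pleiotrophin, had no read in ESCs and 95 in NPCs, from 42 distinct starts. The exact interval of its ratio began at 24.5, or at 9.03 with each start counted once. *Vim*, the filament partner of nestin, held the most reads, 469 and 706, with a ratio of 1.46 (1.30 to 1.65). *Gbx2*, a hindbrain and midbrain border gene that ESCs also use, was the lowest, with 23 and 10 reads and a ratio of 0.422 (0.179 to 0.922). Of the 5 Sox relatives, 4 passed the minimum, and besides *Sox2* and *Sox4* the highest was the SoxB2 gene *Sox21*, with 13 and 36 reads and a ratio of 2.69 (1.39 to 5.52).

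**Figure D5:**
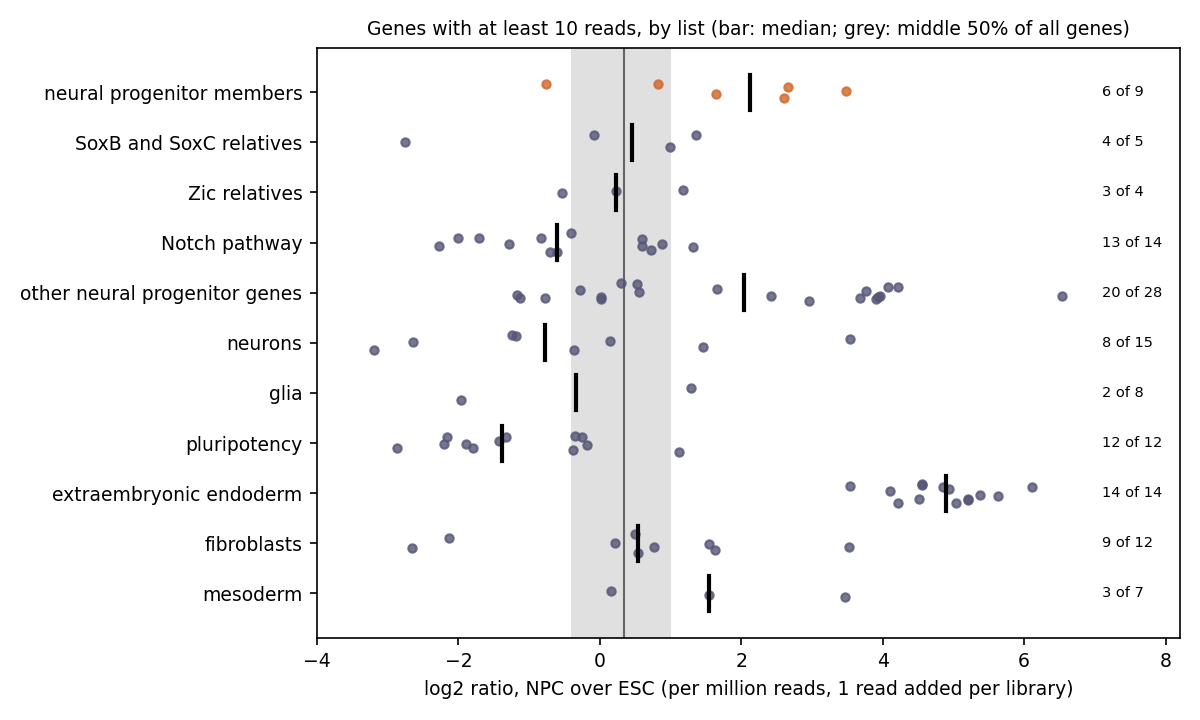
The log2 ratio of the NPC to the ESC library for the genes of each list with at least 10 reads (1 read added per library), with the median of each list as a bar and the number of genes drawn at the right. The grey band holds the middle 50% of all genes and the line within it is their median of 0.34. The 6 members drawn include Sox1, the extraembryonic endoderm genes all lie at 3.54 or above, and 11 of 12 pluripotency genes lie below 0.

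Markers of other cell types also differed between these libraries, and their part in the members' values was not tested. Extraembryonic endoderm genes summed to 818 RPM in ESCs and 15790 RPM in NPCs. All 14 were more than 2-fold higher in NPCs, beside 24.6% of all genes, with a median log2 ratio of 4.90. None of the 14 was at 0 in NPCs. With each start counted once all 14 were still more than 2-fold higher, but the median was 3.61. The ratio of *Sparc* was then 2.08 (1.83 to 2.37) and that of *Col4a1* 3.90 (3.49 to 4.37). The 13828 NPC reads of *Sparc* had 824 distinct starts over 3367 bases of exon. At such depth PCR copies and separate molecules with the same start could not be told apart. The basement membrane genes *Col4a1*, with 856 and 20753 reads, and *Sparc*, with 1151 and 13828, held the most, and *Sparc* had the lowest ratio of the list, 11.7 (11.0 to 12.4). *Afp*, which encodes a secreted protein of the yolk sac, had the highest ratio, 137 (24.2 to 5445), from 1 and 141 reads. Pluripotency genes summed to 2808 RPM in ESCs and 1283 RPM in NPCs. Of the 12, 7 were more than 2-fold lower and 1 more than 2-fold higher, beside 12.8% and 24.6% of all genes. *Pou5f1*, the core pluripotency factor gene, held 2623 and 724 reads, a ratio of 0.268 (0.246 to 0.291), and none of the 12 was at 0 in NPCs. The 9 neural progenitor genes, *Sox1* included, summed to 75.7 RPM in NPCs, and the further list of 28 summed to 465 RPM. Both sums were below those of the 2 lists above. The lists differ in the number and level of their genes, so these sums do not give shares of cells. None of the 9 was at 0 in NPCs.

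Neuronal genes summed to 187 RPM in ESCs and 60.7 RPM in NPCs, and *Rbfox3*, *Neurog1* and *Snap25* were at 0 in NPCs. Of the 8 with at least 10 reads, 2 were more than 2-fold higher in NPCs and 4 more than 2-fold lower, beside 24.6% and 12.8% of all genes. *Stmn2*, a tubulin-binding protein gene of neurons, held 530 and 87 reads and *Tubb3*, the neuronal tubulin gene, 109 and 87. *Gap43*, a growth cone gene, was highest with 1 and 23 reads, a ratio of 22.3 (3.63 to 920), and *Elavl3* lowest with 70 and 7, a ratio of 0.0971 (0.0377 to 0.211). Glial genes were hardly read, at 32.3 and 18.0 RPM, and *Gfap*, *S100b*, *Aqp4*, *Olig1* and *Sox10* were at 0 in NPCs. *Aldh1l1* held 109 and 28 reads and *Mbp* 18 and 47. Fibroblast genes, which the feeder cells of the ESC culture would carry, summed to 75.4 RPM in ESCs and 144 RPM in NPCs, with *Lum* at 0 in both. Of the 9 with at least 10 reads, 3 were more than 2-fold higher in NPCs and 2 more than 2-fold lower. Their median log2 ratio was 0.54, beside 0.34 over all genes. *Acta2*, with 27 and 331 reads, was the highest. At 6.32 RPM in ESCs and 75.2 RPM in NPCs, *Acta2* made up most of the difference between these sums. *Col1a2* held 51 and 165, and *Thy1* was the lowest with 79 and 12. Mesoderm genes summed to 7.49 and 22.7 RPM, with *T*, *Mesp1* and *Tbx6* at 0 in NPCs, and the highest of them, *Hand1*, held 4 and 56 reads. *Kdr* held 9 and 29, and *Eomes*, the lowest, held 12 and 14.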

How the data were processed

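NPA RNA of 1 ESC and 1 NPC culture was made by the authors with 3 rounds of oligo(dT) removal and a ribosomal RNA depletion, sequenced on SOLiD with strand kept, and mapped to mm9 with Bowtie (named in the submitters' processing notes; version not given in the sources used here). The authors removed mitochondrial, ribosomal and repeat reads and deposited 1 line per mapped read with its position, strand and sequence. Reads were not required to map uniquely.

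The counts were made here. A read counted for a gene when it overlapped the union of its GENCODE M1 exons by at least 1 base on its strand. RPM and RPKM used all deposited reads of a library. Intervals are exact Poisson (counts), Clopper-Pearson (shares) and conditional binomial (ratios), at 95%, and cover counting error only. List medians and 2-fold counts added 1 read per library, for genes with at least 10 reads in both together. *Map2* was matched through its older symbol. From each other list, the text names the 2 genes with the most reads and those with the highest and lowest ratio; *Zic4*, *Elp4*, *Pank4*, *Gm5607* and the genes at 0 were named after their values were seen. One result that the rule would name is not reported here. The members and lists were chosen with earlier results of these data known. Scripts (Python 3.11.15, NumPy 2.4.6, SciPy 1.17.1, pysam 0.24.0) were tested on simulated data. Alternatives counted each start once, kept reads found once in mm9, rescaled the libraries, or changed exons, strand, read assignment, the added read or the minimum.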

Additional observations from a re-analysis of the deposited data

How the results depend on the processing

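With 1 library per cell type no replicate could be left out. No paired analysis was possible because each group has 1 library. The log2 ratio of each of the 9 members, *Sox1* included, kept its direction under all 8 alternatives. For *Sox3* and *Fabp7*, which had no ESC read under any of them, a reversal was not possible. For *Sox1* the changes of exons, strand and read assignment counted the same reads. The log2 ratio ranged from 0.40 to 0.87 for *Nes*, from 1.13 to 1.67 for *Sox11*, from -1.10 to -0.73 for *Msi1*, from 1.52 to 3.54 for *Pax6*, from 3.12 to 3.86 for *Zic1* and from 2.26 to 2.68 for *Sox1*. With each start counted once, the annotated members had sums of 139 (ESCs) and 201 reads (NPCs), with a log2 ratio of 0.26 in place of 0.57. Scaled by the median ratio of all genes, that log2 ratio was 0.23, and 1 member, *Msi1*, was more than 2-fold lower in place of 0. With both strands the NPC sum was 331, by the reads opposite to *Pax6*. With a minimum of 50 reads 1 member, *Sox11*, was more than 2-fold higher. With no minimum 5 were, among them *Sox3* and *Fabp7*, for which a difference was not detectable. The shares of 24.6% and 12.8% among all genes hold for the minimum of 10 reads, so they cannot be set beside these counts. Chosen after seeing the data, adding the *Sox1* window gave an NPC sum of 333, and leaving out *Nes* and *Msi1* gave 21 and 103 reads and a log2 ratio of 2.25. The depth left *Sox3*, *Fabp7* and *Hes5* without a detectable difference. It left *Pax6*, *Zic1*, *Sox1* and *Sox11* with intervals that are more than 2-fold wide.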

Other observations

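RefSeq promoters (GRCm38.p6, 250 bases before and 50 after the start) were at hand for 7 of the 9 members, *Nes*, *Pax6*, *Sox1*, *Sox11*, *Fabp7*, *Zic1* and *Hes5*. Their CpG counts ranged from 6 in *Fabp7* to 41 in *Hes5*, with 37 in *Sox1*, 31 in *Zic1*, 21 in *Sox11*, 18 in *Nes* and 18 and 16 at the starts of *Pax6*. Over 32851 promoters the median was 7 and the upper quartile 20. The core letters GTGGGAA that RBPJ, the Notch effector, can bind were found on either strand in the promoter of *Hes5* and in no other of these, and in 6.38% of all promoters. The letters TATAAA were in none of them and in 13.6% of all promoters. *Hes5*, with the most CpGs, held 1 and 2 reads, and *Fabp7*, with the fewest, 0 and 2.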
